A study of Mus musculus with 8 samples.

Results

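The 10 genes described here encode secreted proteins, chosen as acute-phase proteins and protease inhibitors of fat. The acute-phase proteins are haptoglobin (Hp), ceruloplasmin (Cp), orosomucoid 1 (Orm1), lipocalin 2 (Lcn2) and serum amyloid A3 (Saa3). The others are the serpins Serpina3c, Serpina3k, Serpina3m and Serpina3n, and Wfdc21. The 10 genes were picked by name, with earlier results of the same libraries in view. Each was found in the deposited files by its RefSeq accession. All 10 had a row among 23360 genes, and all 10 were among the 14591 genes kept for testing (at least 4 libraries with a value of 10 or more). Serpina3k passed through 4 controls and 1 knockout library, and Saa3 passed through its controls alone. RNA came from inguinal fat (ingWAT), which lies under the skin of the groin, of mice aged 6 weeks. The 4 control libraries were from Lsd1 floxed mice, and the 4 Lsd1 KO libraries were from Lsd1 floxed mice crossed to Adipoq-Cre mice, in which the adiponectin promoter drives the recombinase in adipocytes. Libraries are called controls 1 to 4 and knockouts 1 to 4, in no order. The other cells of the pad should keep the gene, the labels name no group with Cre and an intact gene, and they do not say that each library is a separate mouse, so the spread between libraries may in part be technical. Values are scaled reads, that is, the read count of a gene multiplied by 1 factor per library, and fold changes are log2 differences of value + 1, knockout minus control, which understate changes of low genes.

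Acute-phase proteins are plasma proteins whose synthesis in the liver changes during inflammation, driven mainly by interleukin 6, interleukin 1 and glucocorticoids through STAT3, NF-kB, C/EBP factors and the glucocorticoid receptor. Haptoglobin binds free hemoglobin, ceruloplasmin is a copper-carrying ferroxidase, orosomucoid and lipocalin 2 are lipocalins that carry small lipophilic ligands or bacterial siderophores, and serum amyloid A3 is an apolipoprotein made outside the liver. Serpins trap serine proteases with a reactive loop near their carboxy-terminal end, and mice have a cluster of Serpina3 genes where humans have only SERPINA3. Wfdc21 is a small protein with a whey acidic protein fold, a fold found in several protease inhibitors. Adipocytes are a known source of haptoglobin, orosomucoid and lipocalin 2.

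The 4 Serpina3 genes lie on chromosome 12 of GRCm38.p6, Serpina3c (NM_008458) from 104146907 to 104153929 on the minus strand, and on the plus strand Serpina3k (NM_011458) from 104338486 to 104345739, Serpina3m (NM_009253) from 104387157 to 104394259 and Serpina3n (NM_009252) from 104406646 to 104414334. Their coding sequences were alike, from 83.7% identical bases between Serpina3k and Serpina3n to 91.8% between Serpina3k and Serpina3m, and 76.7% of 1247 aligned columns were identical in all 4. The 90 coding bases where they were least alike are shown because reads there can be told apart best. They lie at or next to the end of the coding sequence, from coding base 1159 to 1248 in Serpina3c and from 1168 to 1257 in the others. Capitals mark the bases that are not identical in all 4, and 51 of the 90 were identical.
Serpina3c: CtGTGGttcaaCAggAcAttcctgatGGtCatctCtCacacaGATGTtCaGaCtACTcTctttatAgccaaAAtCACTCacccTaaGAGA
Serpina3k: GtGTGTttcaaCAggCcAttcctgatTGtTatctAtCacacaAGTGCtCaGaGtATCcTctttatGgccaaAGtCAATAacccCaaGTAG
Serpina3m: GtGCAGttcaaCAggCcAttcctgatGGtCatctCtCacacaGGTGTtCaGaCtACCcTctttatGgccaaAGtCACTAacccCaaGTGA
Serpina3n: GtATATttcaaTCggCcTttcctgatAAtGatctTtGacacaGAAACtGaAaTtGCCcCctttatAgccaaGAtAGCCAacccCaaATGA

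Elsewhere some reads cannot be assigned. Of all 50-base windows of the Serpina3k transcript, 12.8% occurred unchanged in Serpina3m, and 14.04% occurred in at least 1 other Serpina3 gene. The share found in another gene of the family was 19.1% for Serpina3m, 6.90% for Serpina3n and 4.25% for Serpina3c. Serpina3k also shared 60 exon bases with the annotated Serpina3m on the same strand (2.92% of its transcript), and the transcripts of the other 9 genes used here shared no exon bases with another gene. How the counting treated such reads is not given in the sources used here, so the values of Serpina3k and Serpina3m are uncertain.

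Promoter windows of 300 bases, 250 before and 50 after a transcript start, were found in the RefSeq table (GRCm38.p6) for 5 of the 10 genes: Serpina3c, Serpina3n, Lcn2, Saa3 and Cp. Those of Serpina3c (chr12:104153823-104154122, minus strand) and Serpina3n (chr12:104406458-104406757, plus strand) are shown because they were 93.5% identical over 294 aligned bases, while the transcripts had different patterns over the libraries, as given below. Capitals mark the match to the glucocorticoid receptor pattern ACANNNTGT, which began at base -73 in Serpina3c and -76 in Serpina3n.
Serpina3c: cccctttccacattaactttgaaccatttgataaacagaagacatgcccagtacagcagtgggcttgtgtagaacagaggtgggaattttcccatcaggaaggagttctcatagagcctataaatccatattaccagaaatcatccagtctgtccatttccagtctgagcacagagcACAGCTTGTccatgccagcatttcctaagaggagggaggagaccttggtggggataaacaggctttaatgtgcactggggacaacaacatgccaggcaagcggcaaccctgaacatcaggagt
Serpina3n: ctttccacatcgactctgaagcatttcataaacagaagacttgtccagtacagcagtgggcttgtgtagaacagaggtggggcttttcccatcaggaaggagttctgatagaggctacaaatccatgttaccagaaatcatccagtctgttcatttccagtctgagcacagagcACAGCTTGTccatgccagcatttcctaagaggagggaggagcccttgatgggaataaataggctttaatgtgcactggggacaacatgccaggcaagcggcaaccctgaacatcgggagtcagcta

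The same pattern was in the Lcn2 window too, and on either strand it was in 6.85% of the 32851 promoter windows of the table. The C/EBP pattern TTGCNNAA was in the windows of Lcn2 and Saa3, in 1 of the 2 windows of Cp and in 10.8% of all windows. The STAT pattern TTCNNNGAA (8.30% of all windows), the NF-kB pattern GGANTTTCC (1.25%) and the nuclear receptor half-site AGGTCA (16.3%) were in none of the 5 genes' windows. A match to letters is a description, not a binding site. The starts used for the windows need not be the gene starts given in this report. The Saa3 window (chr7:46715627-46715926, minus strand) lay inside the gene, which runs from 46711998 to 46719615.

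The targeted transcript, Kdm1a, was at 685 to 799 scaled reads in the controls and 547 to 581 in the knockouts (log2 fold change -0.36, SE 0.075, limma adjusted p = 0.0498), a call lost in 15 of 21 processing alternatives. Which exons were floxed is not stated in the labels. The libraries held 25671837 to 32442724 recovered reads, 27666408 to 29442190 in the controls. Several marker lists moved with libraries or groups. Summed over 10 adipocyte markers, values were 370555 to 501376 in controls and 300326 to 328413 in knockouts, with no overlap, and the median log2 fold change of the list was -0.33, with all 10 negative. Skeletal muscle markers (11 of 12 in the files) summed to 98699 to 169293 in knockout replicates 1, 2 and 4, and to 7035 to 32310 in the other 5 libraries, knockout replicate 3 included. The keratin Krt5 was at 237 and 82.2 in knockout replicates 1 and 2 and below 1 in the other 6 libraries. It is 1 of 12 mammary epithelium markers, of which 7 stayed below 10 in every library and 3 were tested. All 12 entered the mammary score used below as a covariate. The B cell markers summed to 6554 to 14524 in controls and 10423 to 14539 in knockouts. Of 12 hepatocyte markers, 8 were at 10 or below in every library, with Fga, Fgb and Cyp3a11 at 0 in all 8, and Alb made up most of the sum of 362 to 1022. Control replicates 1 and 2 carry sample numbers (518 and 517) far from those of the other 6 libraries (356 to 361).

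Of the 10 genes, 5 had lower values in every knockout library than in any control: Hp, Wfdc21, Serpina3c, Serpina3k and Saa3. Over all genes tested, 3.58% did so. The groups of the other 5 genes overlapped. In the limma fit over all genes, 4 of the 10 passed as lower at an adjusted p under 0.05 (Hp, Wfdc21, Serpina3c and Serpina3k) and 0 as higher, where 0.356% of all genes tested passed as lower and 1.28% as higher. The genes were chosen with this comparison known, so these counts are a description and nothing is read from them. Fold changes were negative for 8 genes and positive for 2, with a median of -0.52 against 0.02 for all genes tested. In bulk tissue fewer cells of a type and less RNA per cell cannot be told apart. The sum of the adipocyte markers was lower in the same 4 libraries. Taken singly, Cidec, Plin4, Fabp4 and Lipe did not overlap between the groups. Adipoq, Lep, Plin1, Pnpla2, Lpl and Pparg did, and Cidec alone passed with limma. The part of the markers in these values was not tested.

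**Figure D1:**
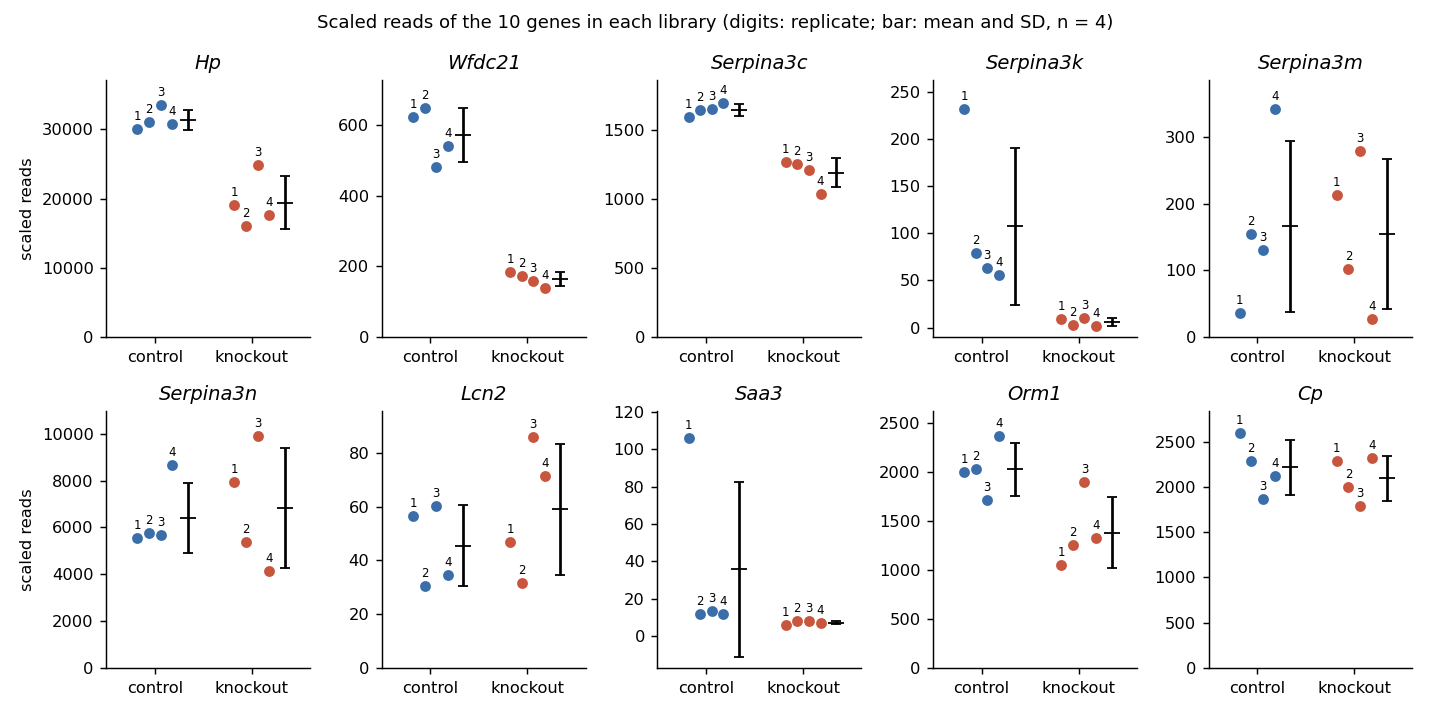
Scaled reads (y axis, linear, a scale of its own in each panel) of the 10 genes in the 4 control and 4 knockout libraries, with digits giving the replicate and bars the mean and SD (n = 4). Points of the groups do not overlap for Hp, Wfdc21, Serpina3c, Serpina3k and Saa3, and control replicate 1 stands above the other controls for Serpina3k (232) and Saa3 (106).

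Haptoglobin was the most abundant of the 10 transcripts. Hp (NM_017370, chromosome 8 from 109575128 to 109579172, minus strand) was at 30111, 31102, 33516 and 30715 scaled reads in controls 1 to 4 and at 19041, 16061, 24806 and 17630 in knockouts 1 to 4. The controls lay close together, and the knockout library nearest to them was replicate 3. The means were 31361 ± 1493 and 19385 ± 3814 (SD, n = 4 each), so the knockout mean was 61.8% of the control mean (log2 fold change -0.71, SE 0.14). The coefficient of variation was 4.76% in controls and 19.7% in knockouts. Knockout replicate 3 was also the knockout library with few muscle transcripts, and with the muscle score as a covariate the log2 fold change of Hp was -0.49. Without knockout replicate 3 it was -0.84. Hp alone made up 0.210 to 0.237% of the reads of a control library and 0.114 to 0.173% of those of a knockout library, most of the 0.299 to 0.326% and 0.186 to 0.280% that all 10 genes held.

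Ceruloplasmin differed little between the groups. Cp (NM_007752, chromosome 3 from 19956933 to 20009750, plus strand) was at 2594, 2284, 1867 and 2124 scaled reads in controls 1 to 4 and at 2287, 2004, 1791 and 2316 in knockouts 1 to 4. The groups spanned nearly the same range. The means were 2217 ± 304 and 2099 ± 249 (SD, n = 4 each; log2 fold change -0.08, SE 0.12). The sign turned in 3 of 21 alternatives, at 0.0022 without control replicate 1, 0.07 without control replicates 1 and 2 together and 0.03 with a B cell score as covariate. The largest value over the 8 libraries was 1.45 times the smallest, the least of the 10 genes.

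Among the serpins, Serpina3k and Serpina3c were lower in all 4 knockout libraries, and Serpina3m and Serpina3n were not. Serpina3k was at 232, 78.6, 62.7 and 55.7 scaled reads in controls 1 to 4. It was at 8.73, 2.18, 10.6 and 2.00 in knockouts 1 to 4, which rest on 16, 4, 24 and 4 recovered reads. Control replicate 1 was 3.53 times the mean of the other controls, and every knockout library was below the lowest control. The means were 107 ± 83.6 and 5.88 ± 4.45 (SD, n = 4 each), an 18.2-fold difference (log2 fold change -3.98, SE 0.57). Without control replicate 1 the control mean was 65.7 ± 11.8 and the difference 11.2-fold. Without control replicates 1 and 2 together the gene no longer passed the filter on low values and was not fitted.

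Serpina3c had the tightest groups. It was at 1596, 1647, 1655 and 1697 scaled reads in controls 1 to 4 and at 1268, 1254, 1209 and 1041 in knockouts 1 to 4. The highest control was only 1.06 times the lowest, and the highest knockout 1.22 times the lowest. The means were 1649 ± 41.4 and 1193 ± 104 (SD, n = 4 each), so the knockout mean was 72.4% of the control mean (log2 fold change -0.47, SE 0.079). Over the 21 alternatives the log2 fold change stayed between -0.58 and -0.41. The sum of the adipocyte marker list, which had a median of -0.33, was lower in the same libraries. The part of these markers in the Serpina3c values was not tested.

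Serpina3n, the most abundant of the 4, varied within both groups. It was at 5544, 5777, 5680 and 8660 scaled reads in controls 1 to 4 and at 7924, 5365, 9889 and 4145 in knockouts 1 to 4. Control replicate 4 and knockout replicates 1 and 3 were high, and knockout replicate 4 was the lowest of all. The means were 6415 ± 1500 and 6831 ± 2576 (SD, n = 4 each; log2 fold change 0.04, SE 0.26), and the sign turned in 8 of 21 alternatives. With the muscle score as covariate the value was 0.51, the one farthest from 0.

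Serpina3m had the widest range of the 10 genes within either group, as a ratio of its highest to its lowest library. It was at 36.6, 155, 131 and 342 scaled reads in controls 1 to 4 and at 213, 102, 280 and 26.5 in knockouts 1 to 4. The same 3 libraries as for Serpina3n were the highest, control replicate 4 and knockout replicates 1 and 3. The lowest were control replicate 1 and knockout replicate 4. The highest control was 9.34 times the lowest and the highest knockout 10.6 times the lowest, with means of 166 ± 128 and 155 ± 113 (SD, n = 4 each; log2 fold change -0.16, SE 0.79). The sign turned in 3 of 21 alternatives, at 0.31 without control replicate 4, 0.52 without knockout replicate 4 and 0.84 with the muscle covariate.

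The Serpina1 genes, which encode alpha-1-antitrypsin and lie on the same chromosome, varied between libraries as well. They are close copies of each other, so reads may be split among them. Serpina1b was at 20.5, 21.6, 230 and 303 scaled reads in controls 1 to 4 and at 201, 126, 322 and 40.9 in knockouts 1 to 4. Control replicate 4 and knockout replicate 3, high for Serpina3m and Serpina3n, were the highest here too. Serpina1e ran the other way in those libraries, with 34.2, 39.8, 27.9 and 1.55 in controls 1 to 4 and 0, 43.0, 0.880 and 62.9 in knockouts 1 to 4, and was lowest in control replicate 4 and knockout replicates 1 and 3. Serpina1e was singled out after its values were seen. The files held 22 Serpina genes of chromosome 12, and 13 were tested. Of the 9 tested ones that are not among the 10 genes, 0 passed with limma, 0 with edgeR and 0 with DESeq2, and 1 had an unadjusted limma p under 0.05. Serpina3n held 67.8 to 76.8% of the summed scaled reads of the Serpina3 genes in controls and 70.5 to 81.8% in knockouts, and Serpina3c held 15.1 to 20.4% and 10.003 to 17.7%.

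**Figure D2:**
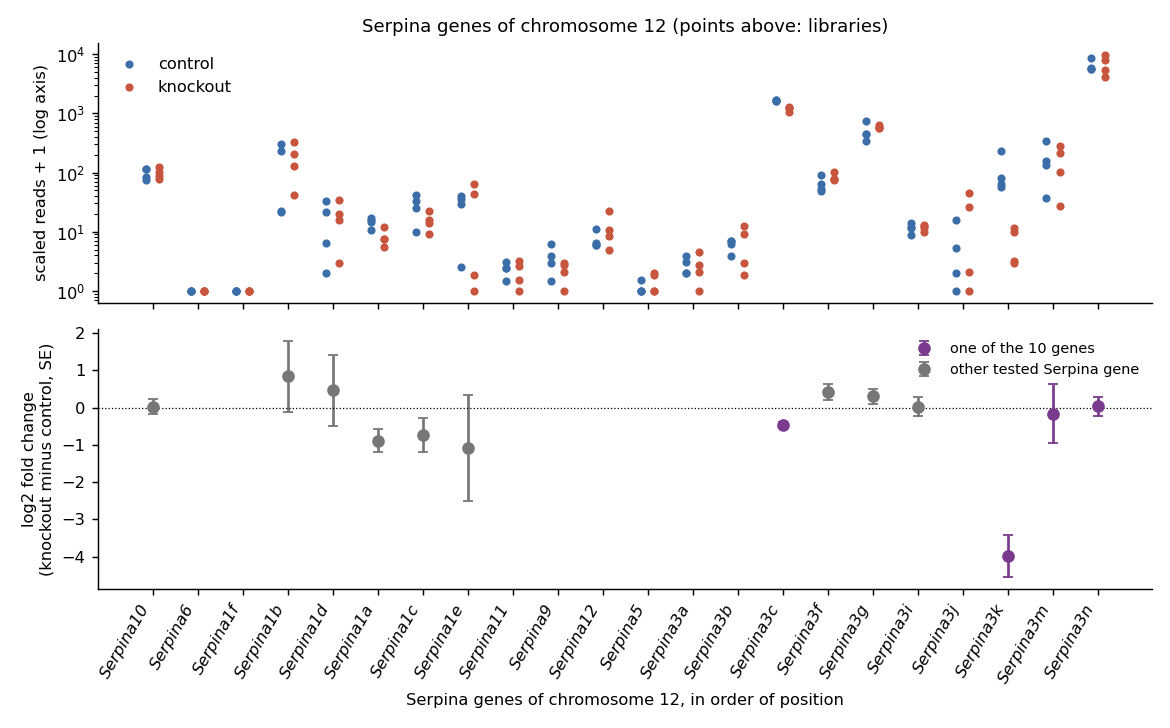
Serpina genes of chromosome 12 in order of position (x axis), above as scaled reads + 1 in each library (log axis, points in blue for control and red for knockout) and below as log2 fold change with SE for the 13 tested genes (purple, members of the 10 genes; grey, others). Serpina3k lies at -3.98 and Serpina3c at -0.47, and the widest SE is that of Serpina1e (1.43), whose libraries range from 0 to 62.9.

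Wfdc21 had non-overlapping groups with little spread in either. Wfdc21 (NM_183249, chromosome 11 from 83746940 to 83752646, plus strand) was at 621, 646, 481 and 540 scaled reads in controls 1 to 4 and at 183, 173, 158 and 138 in knockouts 1 to 4. The highest knockout value was well below the lowest control value. The means were 572 ± 75.9 and 163 ± 19.7 (SD, n = 4 each), so the knockout mean was 28.5% of the control mean (log2 fold change -1.80, SE 0.13). Knockout replicate 3, nearest to the controls for Hp and Orm1, was within the range of the other knockouts here. Over the 21 alternatives the log2 fold change ranged from -1.94 to -1.65. It was -1.84 with the muscle covariate.

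The 2 lipocalins of the set had overlapping groups. Orm1 (NM_008768, chromosome 4 from 63344556 to 63348163, plus strand), an acid glycoprotein that carries lipophilic ligands, was at 2002, 2030, 1717 and 2369 scaled reads in controls 1 to 4 and at 1055, 1254, 1900 and 1327 in knockouts 1 to 4. Knockout replicate 3 lay within the control range, and the other 3 knockouts lay below it. The means were 2029 ± 267 and 1384 ± 363 (SD, n = 4 each; log2 fold change -0.58, SE 0.17). Without knockout replicate 3 the log2 fold change was -0.74, and with the muscle covariate, which is low in that library, it was -0.19. Orm1 is close in sequence to its neighbours Orm2 and Orm3, and reads may be split among them. Orm2 was at 55.1 ± 5.40 in controls and 52.0 ± 13.7 in knockouts (-0.11, limma adjusted p = 0.844), and Orm3 at 184 ± 44.7 and 136 ± 20.6 (-0.42, limma adjusted p = 0.341; n = 4 each).

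Lcn2 (NM_008491, chromosome 2 from 32384637 to 32387739, minus strand), which binds bacterial siderophores and is stored in neutrophil granules as well as made by adipocytes, was at 56.6, 30.5, 60.2 and 34.6 scaled reads in controls 1 to 4 and at 46.9, 31.6, 85.8 and 71.4 in knockouts 1 to 4. The lower values of both groups were alike, and knockout replicates 3 and 4 were above every control. The means were 45.5 ± 15.1 and 58.9 ± 24.3 (SD, n = 4 each; log2 fold change 0.33, SE 0.34). The neutrophil markers (9 of 10 in the files) summed to 271, 116, 372 and 205 in controls 1 to 4 and to 122, 249, 545 and 399 in knockouts 1 to 4, also highest in knockout replicates 3 and 4. All 9 neutrophil markers had reads in some library, and their part in the Lcn2 values was not tested.

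Saa3 was low apart from a single library. Saa3 (NM_011315, chromosome 7 from 46711998 to 46719615, minus strand) was at 106, 11.8, 13.2 and 11.9 scaled reads in controls 1 to 4 and at 6.00, 8.16, 7.96 and 6.99 in knockouts 1 to 4. Control replicate 1 was 8.62 times the mean of the other 3 controls, and every knockout value lay below every control. The means were 35.7 ± 46.8 and 7.28 ± 0.993 (SD, n = 4 each; log2 fold change -1.44, SE 0.63), a 4.90-fold difference of means that was 1.69-fold without control replicate 1 (control mean 12.3 ± 0.806, n = 3). Recovered reads were 11 to 18 in the knockouts and 23 to 27 in control replicates 2 to 4. Since Saa3 reached the filter only through its controls, a lower knockout level was built into its being tested. Its liver relatives Saa1 and Saa2 did not exceed 7.32 and 6.19 in any library and were not tested.

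Per length of transcript (GENCODE M21), the 10 genes spanned a wide range. In controls Hp was at 23317 ± 1110 scaled reads per kilobase, Serpina3n at 3108 ± 727, Orm1 at 2619 ± 344, Wfdc21 at 1318 ± 175, Serpina3c at 745 ± 18.7 and Cp at 550 ± 75.5 (SD, n = 4 each). The ranges of Serpina3n and Orm1 overlapped, and the other neighbours in this upper part of the order did not. Serpina3m (100.1 ± 77.1), Saa3 (64.3 ± 84.4), Serpina3k (52.1 ± 40.7) and Lcn2 (49.7 ± 16.5) followed, each overlapping the next. The place of Saa3 rested on control replicate 1 (190.8). In controls 2 to 4 Saa3 was at 21.2, 23.8 and 21.4, below Serpina3k and Lcn2 in each. In knockouts the order was Hp (14412 ± 2836), Serpina3n (3310 ± 1248), Orm1 (1786 ± 468), Serpina3c (539 ± 47.2), Cp (521 ± 61.8), Wfdc21 (376 ± 45.4), Serpina3m (93.5 ± 68.0), Lcn2 (64.4 ± 26.6), Saa3 (13.1 ± 1.79) and Serpina3k (2.86 ± 2.16). There the ranges of neighbours overlapped for Serpina3n and Orm1, Serpina3c and Cp, and Serpina3m and Lcn2. Wfdc21 stood above Serpina3c and Cp in every control and below both in every knockout.

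**Figure D3:**
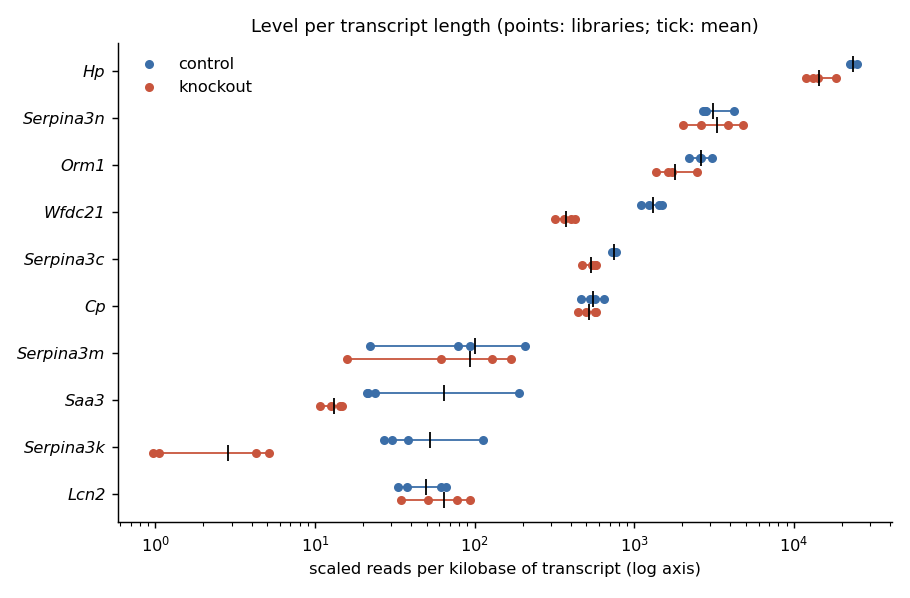
Level per transcript length (x axis, scaled reads per kilobase, log axis) of the 10 genes in each library, with control points in blue, knockout points in red, ticks at the mean and genes ordered by control mean. Hp lies above all others in both groups (23317 and 14412). Wfdc21, Saa3 and Serpina3k move down the order in the knockouts, and Serpina3c, Cp and Lcn2 move up.

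The alternatives in processing moved the 10 genes unequally. Wfdc21, Hp, Serpina3c, Serpina3k, Saa3 and Orm1 kept a negative sign and Lcn2 a positive sign in every alternative that gave a value (21 for each, 20 for Serpina3k and 15 for Saa3). The number of the 10 that passed as lower was 4 with edgeR on recovered reads (0.288% of all genes tested passed as lower) and 5 with DESeq2 (1.95%), which added Orm1. It was 1, Wfdc21, both with the muscle score as covariate and without control replicates 1 and 2 together. Hp lost its call without any 1 library other than knockout replicate 3, without a filter on low values and with the mammary or B cell covariate. Serpina3c lost it without control replicate 4, knockout replicate 2 or knockout replicate 4. Serpina3k and Wfdc21 kept theirs without any 1 library.

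**Figure D4:**
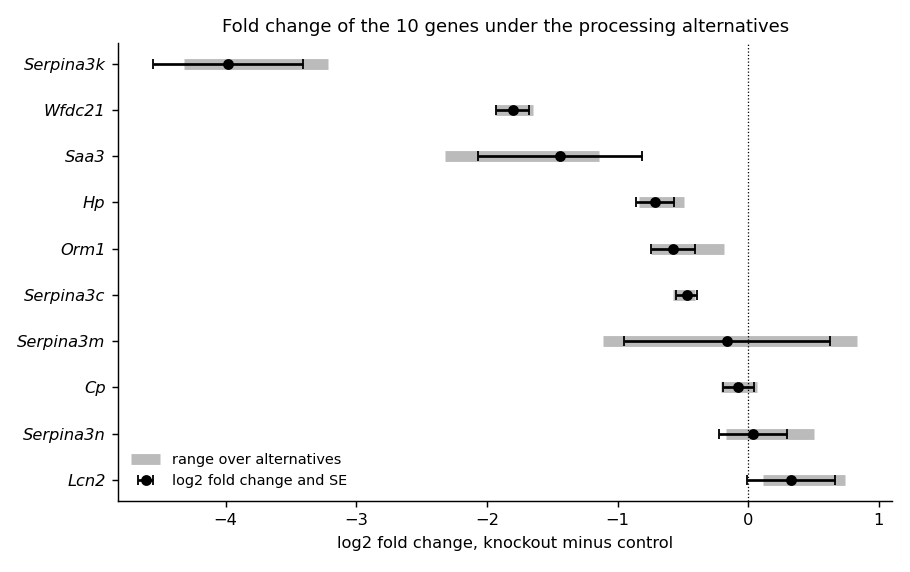
Log2 fold change, knockout minus control (x axis), of the 10 genes with its SE (black point and bar) over the range of the processing alternatives (grey bar). The grey bars of Serpina3m, Serpina3n and Cp cross 0, and those of Wfdc21 (-1.94 to -1.65) and Serpina3c (-0.58 to -0.41) are short.

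The genes whose profile over the 8 libraries was nearest to each of the 10 were found by the root mean square difference of centred log2 values among 14180 genes. For Hp it was Gsto1, a glutathione transferase, at 0.146, with a spread of Hp itself of 0.395. For Serpina3c it was Mccc1, a subunit of methylcrotonyl-CoA carboxylase, at 0.089 (own spread 0.250), for Orm1 the peroxisome biogenesis gene Pex16 at 0.147 (0.380) and for Cp Pptc7 at 0.061 (0.166). For Wfdc21 the nearest were Zwilch at 0.290, Clstn3 at 0.304 and Igfals at 0.319 (own spread 0.916). For Serpina3k the nearest were Tmc5 at 1.17 and Cyp2e1 at 1.19, far in absolute distance, beside the largest own spread of the 10 (2.17). In absolute distance the nearest were also far for Serpina3m (1700084E18Rik, 0.794, own spread 1.23) and Saa3 (Adam5, 0.540, own spread 1.18), which varied widely themselves. For Serpina3n and Lcn2 it was Pcdh9 at 0.184 (own spread 0.392) and Ggt1 at 0.222 (0.515). Pcdh9 and 1700084E18Rik were low, with control means of 16.7 and 9.84 scaled reads and knockout means of 18.6 and 8.72. The 8 values of a profile share libraries, so the distances are a description.

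Genes of the same pathways were counted from 11 lists, 228 genes tested in all, of which 6 passed as higher and 0 as lower (2.63% against 1.64% of all genes tested; limma). With edgeR on recovered reads 6 of the 228 passed, where 1.49% of all genes tested did. With DESeq2 23 of the 228 passed, where 5.32% of all genes tested did. An unadjusted limma p under 0.05, counted below for some lists, was found in 2119 of the 14591 genes tested (14.5%). Of 18 other acute-phase genes 0 passed with limma or edgeR and 3 with DESeq2, 8 (44.4%) had an unadjusted p under 0.05, 13 had a negative fold change, and the median was -0.27. Lbp, which carries bacterial lipopolysaccharide, was at 841 ± 146 and 1372 ± 320 scaled reads (0.69, limma adjusted p = 0.0925), and angiotensinogen, Agt, at 639 ± 73.4 and 374 ± 132 (-0.83, limma adjusted p = 0.0994; n = 4 each). Both had non-overlapping groups and, like Trf, were picked after their values were seen. Agt passed as lower in 3 alternatives, with DESeq2 (-0.80, adjusted p = 0.00721), without knockout replicate 1 (-1.04, limma adjusted p = 0.00765) and with the muscle covariate (-1.16, limma adjusted p = 0.0414), and its adjusted p ranged up to 0.451 over the 21. Lbp and Trf passed with DESeq2 alone (adjusted p = 0.0111 and 0.00152). Of 4 genes known to fall in the liver during inflammation 0 passed with limma or edgeR and 1 with DESeq2, 1 (25.0%) had an unadjusted p under 0.05, and all 4 fold changes were negative (median -0.45). Transferrin, Trf, was at 27652 ± 5186 and 17868 ± 2478 (-0.62, limma adjusted p = 0.103, n = 4 each).

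Protease inhibitors other than the 10 genes included 3 that rose. Of 19 other serpins 1 rose, with a median of 0.17 and 14 positive. Another list was mostly of inhibitors with whey acidic protein, Kunitz, cystatin or TIMP domains, and also held others such as Pi15 and Reck. Of its 17 tested genes 2 rose, with a median of 0.15 and 14 positive. Serpine2, an inhibitor of thrombin and urokinase, rose from 800.2 ± 58.7 to 1173 ± 56.2 scaled reads (log2 fold change 0.55, SE 0.077, limma adjusted p = 0.00743). Tfpi, the tissue factor pathway inhibitor, rose from 254 ± 16.3 to 423 ± 45.0 (0.73, SE 0.100, adjusted p = 0.00695 by limma), and Timp4, a metalloproteinase inhibitor, from 1359 ± 216 to 2362 ± 310.0 (0.80, SE 0.14, adjusted p = 0.0187 by limma; n = 4 each). Slpi, a secreted inhibitor of leukocyte elastase, was at 75.3 ± 59.2 and 98.4 ± 62.2 (0.53, limma adjusted p = 0.699). A list made up mostly of serine and cysteine proteases also held genes that are neither, such as Cpa3 and Ctsd. Among its 26 tested genes 1 rose, with a median of 0.21 and 20 positive. It was Fap, fibroblast activation protein, with 392 ± 22.7 and 544 ± 20.7 (0.47, limma adjusted p = 0.0171).

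Among 21 complement components 1 rose, the C1s protease gene C1s1, from 5595 ± 381 to 8064 ± 680 (0.53, limma adjusted p = 0.0214; n = 4 each), and the median of the list was 0.08. C3 was at 37841 ± 4102 and 40741 ± 6909 (0.10, limma adjusted p = 0.826). Of 23 genes in a list of glucocorticoid receptors, genes taken as their targets and Hsd11b1, 1 rose, and the median was 0.02. It was the syndecan gene Sdc1, which rose from 333 ± 19.9 to 498 ± 69.8 (0.57, limma adjusted p = 0.0326). The receptor gene Nr3c1 (-0.11, adjusted p = 0.586) and Hsd11b1, which regenerates active glucocorticoid inside cells (0.34, adjusted p = 0.270), did not pass with limma. Without knockout replicate 2 or knockout replicate 4 only Serpine2 and Tfpi of the 6 passed, and without control replicates 1 and 2 together only Serpine2 did. With the mammary covariate only Timp4 did, and with the B cell covariate only Serpine2 and Tfpi did. With the muscle covariate, a score that was high in knockout replicates 1, 2 and 4, Serpine2, Tfpi and Timp4 passed, and C1s1 (0.45, limma adjusted p = 0.0811), Fap (0.41, limma adjusted p = 0.0682) and Sdc1 (0.49, limma adjusted p = 0.106) did not. These 3 did not pass without control replicate 4 either, C1s1 did not without control replicate 1, and Sdc1 did not without any 1 of the 4 controls.

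The regulators and receptors of the acute phase did not pass. Of 56 cytokine, receptor and signalling genes 0 passed with limma or edgeR and 3 with DESeq2, 6 (10.7%, against 14.5% of all genes tested) had an unadjusted p under 0.05, and the median was -0.01. Stat3 was at 2877 ± 142 and 2629 ± 179 scaled reads (-0.13, limma adjusted p = 0.476), the interleukin 6 receptor subunit Il6st at 4268 ± 198 and 3815 ± 520.0 (-0.17, limma adjusted p = 0.499), and Cebpa at 10816 ± 1469 and 8121 ± 1258 (-0.42, limma adjusted p = 0.199; n = 4 each). Cebpa passed with DESeq2. Of 14 receptor and clearance genes 0 passed with limma or edgeR and 1 with DESeq2, 4 (28.6%) had an unadjusted p under 0.05, and the median was 0.16. The hemoglobin-haptoglobin receptor gene Cd163 was at 1147 ± 133 and 1304 ± 401 (0.14, limma adjusted p = 0.806), and the lipocalin 2 receptor gene Slc22a17 at 408 ± 59.4 and 563 ± 66.3 (0.47, limma adjusted p = 0.126), which passed with DESeq2. Of 35 iron and copper handling genes 0 passed with limma or edgeR and 2 with DESeq2, 7 of the 35 had an unadjusted p under 0.05, and the median was -0.02. Of 4 other lipocalins 0 passed with limma, edgeR or DESeq2 and 2 of the 4 had an unadjusted p under 0.05. Hemopexin, Hpx, the heme carrier, did not exceed 10.2 in any library and was not tested.

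**Figure D5:**
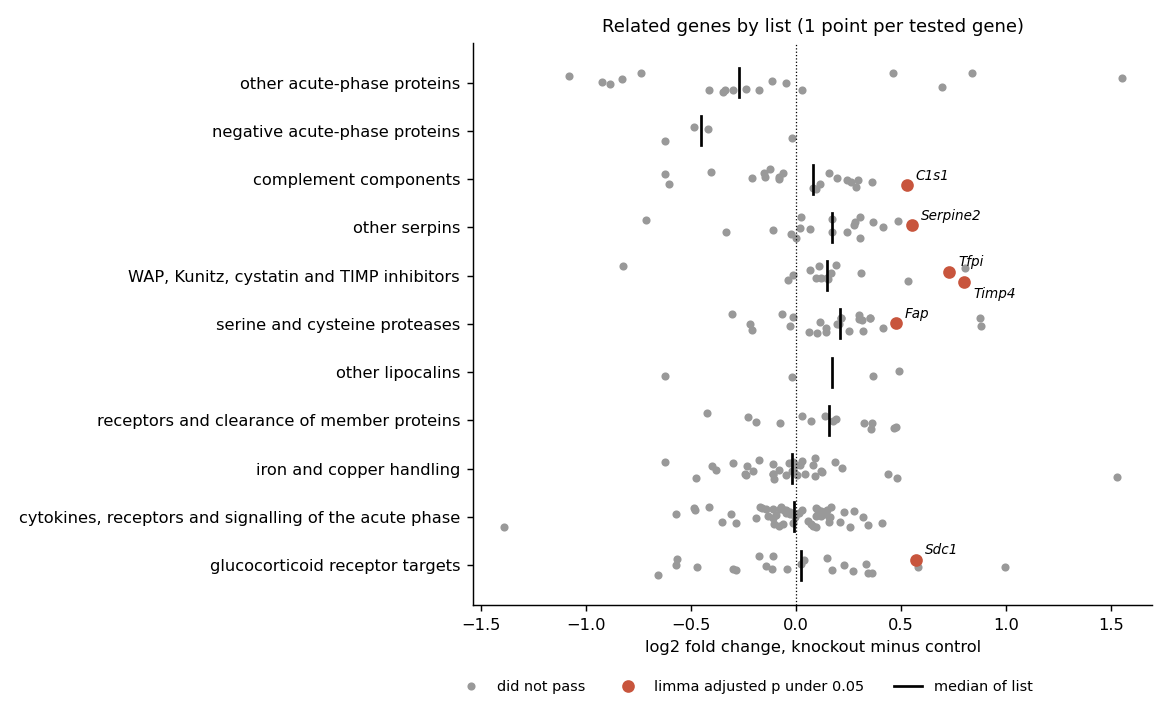
Log2 fold change, knockout minus control (x axis), of the tested genes of each related list (1 point per gene, a gene may be in several lists), with black ticks at list medians. The 6 genes that passed (red, limma adjusted p under 0.05) lie between 0.47 and 0.80, and the medians lie between -0.45 and 0.21.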

How the data were processed

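RNA sequencing libraries of inguinal fat, 4 control and 4 knockout, were grouped by the genotype label. Per the submitters' processing notes and the series design text, the authors aligned reads with TopHat2 (version 2) to mm10, counted them with HOMER, and sought changed genes with edgeR and DESeq (1.8.3). No source used here gives the strand setting, the annotation or the scaling. The deposited values are a signal and not counts as such. Within a library the authors' values were whole multiples of 1 step (0.442 to 0.545) for 99.994 to 100% of values above 0, within a tolerance of 0.02 scaled reads. A step may be 1 end of a read pair, so counting error may be larger than recovered reads imply. Of 23373 rows, 1 had no accession (left out), 22527 were named from RefSeq (GRCm38.p6) and 124 from GENCODE M21, 721 kept their accession, and 12 gave way to a row of the same symbol with a higher total.

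The main test was limma (3.58.1, R 4.3.3) on log2(value + 1) with its trend option and genotype as the sole term, on the 14591 genes at 10 or more in 4 or more libraries, two-sided with Benjamini-Hochberg adjustment. Alternatives were pseudocounts 0.5 and 5, no filter or a filter at 50, TMM, RLE and library-total scaling, edgeR (4.0.16) and DESeq2 (1.42.0) on recovered whole reads, leaving out each library or control replicates 1 and 2 together, and muscle, mammary or B cell marker scores as covariates. In edgeR 218 genes passed. Between libraries of a group, chi-square per degree of freedom was 25.6 to 136, so none was a copy of another. The members and lists were chosen with earlier results of these data known, and no p-value of the 10 genes is given. Other genes named were a list fixed by name, up to 4 called per list and direction, and the 3 nearest profiles of each member. Serpina3 coding sequences were aligned with MAFFT (7.526), and tables were read with Python 3.11.15, pandas 2.3.3 and Biopython 1.88.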

Additional observations from a re-analysis of the deposited data

Results flagged for a closer look

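In groups of 4 libraries, 82 groups were checked for a library far from the other 3 by Dixon's ratio, and 9 stood out, where chance gives about 1 in 20 groups. Among the 10 genes they were Serpina3k and Saa3 in control replicate 1 (231.84 and 105.91 scaled reads, against 78.63 and 13.22 in the nearest control) and Serpina3n in control replicate 4 (8660.2, against 5776.8). Control replicate 1 was also the lowest control, apart from the others, for Slc22a17 (320.18), Lrp1 (8954.69) and Heph, a ferroxidase related to ceruloplasmin (757.0). The others were Nfkbia in control replicate 3 (2386.0, the highest control), Slpi in knockout replicate 4 (191.22, the highest knockout) and Fap in knockout replicate 3 (513.11, the lowest knockout, still above every control).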

How the results depend on the processing

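Of 14591 genes 239 passed in the main analysis, 776 with DESeq2, 111 with the mammary and 140 with the B cell covariate, 98 without control replicates 1 and 2 together, and 71 (without knockout replicate 4) to 429 (without knockout replicate 3) when 1 library was left out. The other alternatives gave 194 to 244. Of the 10 genes 4 passed, 1 with the muscle covariate, 1 without control replicates 1 and 2 together, and 2 to 5 when 1 library was left out. Of the related genes 6 passed, 6 with the muscle covariate (Serpine2, Tfpi and Timp4 of the same genes, with Agt, Blvra and Zbtb16 in place of C1s1, Fap and Sdc1), 23 with DESeq2, 1 with the mammary and 3 with the B cell covariate, 2 without control replicates 1 and 2 together, and 2 to 11 when 1 library was left out. Some genes that did not pass turned sign. Without control replicates 1 and 2 together these were Cebpb (0.11), Socs3 (0.052), Nfkbia (-0.063) and Serpina1b (-0.95). With the muscle covariate they were Cd163 (-0.19), Cebpb (0.11), C3 (-0.13) and Slc40a1 (-0.087), with the mammary covariate Cebpb (0.040) and C3 (-0.023), and with the B cell covariate Nfkbia (-0.031) and Serpina1b (-0.19). When 1 library was left out, the log2 fold change ranged from -0.24 to 0.034 for Orm2 (positive without knockout replicate 2), from -0.018 to 0.33 for Cd163 (negative without knockout replicate 1), from -0.17 to 0.038 for Lrp1 and from -0.24 to 0.069 for Il6ra (both positive without knockout replicate 3), and from -0.22 to 0.056 for Cebpb (positive without control replicate 1, knockout replicate 1 or knockout replicate 4). The cause was not tested. No paired analysis was possible because the sample numbers in the titles are not shared between the genotypes. Low reads limit Saa3, Serpina3k in the knockouts and Lcn2. Without any 1 control, without control replicates 1 and 2 together or with a filter at 50, Saa3 fell under the filter and had no value.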
